A study of Mus musculus with 4 samples.

Results

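The microRNA family of miR-15, miR-16, miR-195 and miR-497 was read by 5 of the 375 microRNA assays of a TaqMan real-time PCR panel. Its members were chosen by assay name alone, as mmu-miR-15a, mmu-miR-15b, mmu-miR-16, mmu-miR-195 and mmu-miR-497, where the prefix mmu stands for mouse. RNA came from whole C57BL/6 mouse embryos at E18.5, 2 samples from ER-alpha knockout animals and 2 wild-type samples of the same strain and stage. ER-alpha is a nuclear receptor for estrogen, encoded by Esr1. The labels name no knockout allele and leave it unsaid if embryos were pooled, so p-values cover the spread among these samples alone, which may be technical in part. Because the assays read small RNAs, the loss of Esr1 could not be checked here. Each well gave a threshold cycle (Ct), the PCR cycle at which its signal crossed a set threshold, so RNA that is more abundant has a lower Ct, and 1 cycle stands for about 1 log2 unit.

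MicroRNAs are short RNAs that pair through their seed, the bases 2 to 8 from the 5′ end, with messenger RNAs and lower their translation or stability. Members of this family share a seed and are known for slowing the cell cycle, since cyclins D1 and E1, the kinase Cdk6 and the survival factor Bcl2 are among their targets. In the mouse heart miR-195 is known to accumulate around birth, when muscle cells stop dividing, and miR-16 is abundant in red blood cells. Processing of the miR-16 precursor has been linked to the helicase p68, a protein that ER-alpha can bind.

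The mature sequences are shown because the common seed defines the family and the members differ in the bases after it. They are given 5′ to 3′ from RefSeq (GRCm38.p6), with the seed in capitals, and all 5 assays were matched by taking the assay name without an arm as the 5′ arm.
mmu-miR-16: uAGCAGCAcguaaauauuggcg
mmu-miR-195: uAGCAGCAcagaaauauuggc
mmu-miR-15a: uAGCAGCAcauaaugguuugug
mmu-miR-15b: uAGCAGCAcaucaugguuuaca
mmu-miR-497: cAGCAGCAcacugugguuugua
RefSeq calls miR-195 and miR-497 by the names miR-195a and miR-497a, and lists the assay names as synonyms of their genes. Position by position and with no gaps, the seeds of the 5 members had 0 differences, and after base 1 every other member first differed from miR-16 at base 10. Counted from 1 at the 5′ end with the miR-16 base first, miR-195 carried only G10A and U11G over 21 bases, whereas miR-15a had 6 differences, miR-15b had 8 and miR-497 had 11. The miR-15 forms were separated by A12C, G20A, U21C and G22A, with the miR-15a base first. Of 1679 mouse mature microRNA names in RefSeq, 10 (0.596%) had this seed, among them miR-322.

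The members come from 3 clusters (GRCm38.p6). Mir15a (chr14:61632027-61632110) and Mir16-1 (chr14:61631880-61631972) lie 54 bases apart on the minus strand, within the span of the long noncoding RNA gene Dleu2. Mir15b (chr3:69009772-69009835) and Mir16-2 (chr3:69009902-69009996) lie 66 bases apart on the plus strand, within the span of Smc4, which encodes a condensin subunit. Mir497 (chr11:70234717-70234800) and Mir195a (chr11:70235042-70235135) lie 241 bases apart on the plus strand. Exons and introns of these genes were not analysed here. The hairpins of Mir16-2 and Mir16-1 are shown because they hold the same mature miR-16, in capitals, in different surroundings, so the mmu-miR-16 assay reads the sum of both loci.
Mir16-2: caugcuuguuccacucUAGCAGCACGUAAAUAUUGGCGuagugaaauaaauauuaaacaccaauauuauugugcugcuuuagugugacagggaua
Mir16-1: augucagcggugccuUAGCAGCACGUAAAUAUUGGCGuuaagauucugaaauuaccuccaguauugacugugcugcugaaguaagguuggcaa

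An assay counted as detected up to a Ct of 35, which gave 260 and 259 microRNAs in ER-alpha knockout replicates 1 and 2, and 290 and 254 in wild-type replicates 1 and 2. All 5 family members were among the 229 detected in all 4 samples. Muscle (mmu-miR-133a), endothelial (mmu-miR-126-3p), epithelial (mmu-miR-200c), brain (mmu-miR-9) and liver (mmu-miR-122) microRNAs amplified in every sample. Of 5 assays on the panel for microRNAs of placenta and pluripotent cells, 0 were detected in all samples. Wild-type replicate 1 stood apart, with Pearson correlations of Ct over the 229 assays of 0.939 to 0.954 with the other samples, against 0.978 to 0.989 among those. After subtraction of a constant of 0.273 common to its wells other than U6, 89.9% of its amplified microRNA wells were no more than 0.1 from a whole-numbered cycle, against 21.0% to 26.5% in the other samples. That held for all 5 family members in it, at most 0.044 cycles from a whole cycle. The part of these readings in the results was not tested. Fold changes and ratios of the members are given with and without that sample.

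Levels are written as log2 units above or below the median microRNA of the sample, taken over the 229 shared assays. Different assays may amplify with different efficiency, so gaps between members are approximate. Cross-reaction between assays of close sequence was not tested.

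The most abundant member was miR-16, which took rank 3 by Ct among the detected microRNAs of each of the 4 samples. Its Ct was 20.3 and 20.5 in ER-alpha knockout samples, and 22.2 and 20.6 in wild-type samples. Its relative level was 7.91 and 7.36 log2 units in knockout samples, and 7.005 and 6.79 in wild-type samples. Both knockout samples were thus above both wild-type samples, by at least 0.36. That smallest gap was to wild-type replicate 1, whose readings lay near whole cycles.

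Next came miR-195, with a Ct of 26.5 in both knockout samples and of 28.2 and 26.2 in wild-type replicates 1 and 2. Its relative levels were 1.64 and 1.37 in knockout samples, and 0.996 and 1.20 in wild-type samples. The groups did not overlap, and the gap between the nearest samples was 0.17 log2 units.

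The level of miR-15b was 0.43 and 0.42 in knockout samples, and -1.04 and 0.42 in wild-type samples. Of its 4 samples 3 were nearly equal, and wild-type replicate 1 lay 1.46 log2 units below wild-type replicate 2. The separation of knockout from wild-type was only 0.0019 log2 units.

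Its close relative miR-15a stood at -0.30 and -1.51 in knockout samples, and at -0.01 and -1.20 in wild-type samples. The groups overlapped, and replicates of 1 genotype differed by 1.21 log2 units in knockout and 1.19 in wild-type samples.

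The least abundant member was miR-497, with Ct values of 29.6 and 30.4 in knockout samples, and 31.3 and 29.2 in wild-type samples. Its levels were -1.37 and -2.62 in knockout samples, and -2.02 and -1.80 in wild-type samples. Both wild-type values lay between the knockout values.

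**Figure D1:**
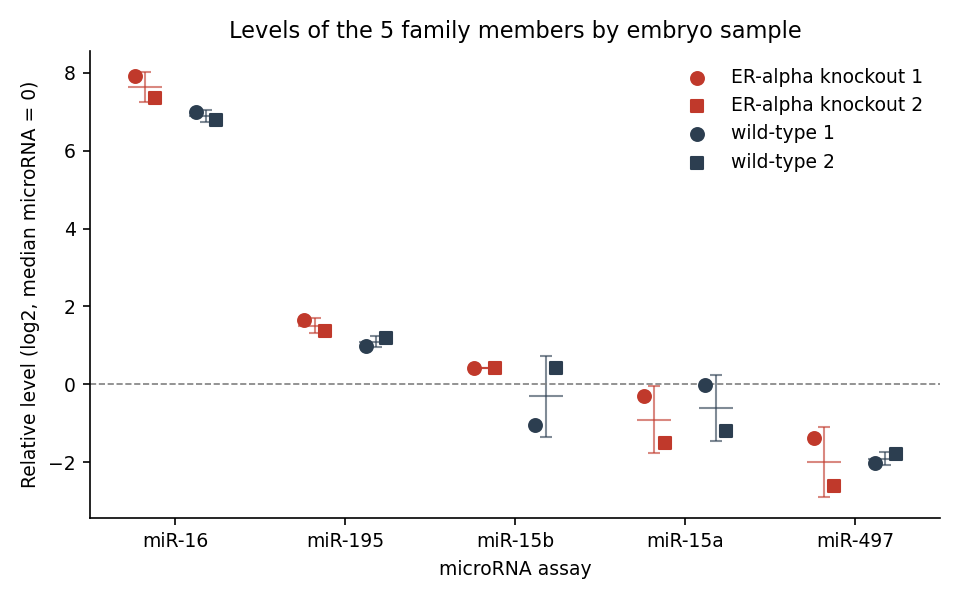
Relative level of each member (log2 units, with the median microRNA of the sample at 0) in ER-alpha knockout samples (red) and wild-type samples (dark blue). Points are samples, and bars are the mean and SD of 2 samples. The miR-16 points lie between 6.79 and 7.91, well above all others, and the miR-15b point of wild-type replicate 1 lies at -1.04, below the 3 near 0.42.

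Over all 4 samples the mean levels were 7.27 ± 0.49 for miR-16, 1.30 ± 0.27 for miR-195, 0.06 ± 0.73 for miR-15b, -0.76 ± 0.72 for miR-15a and -1.95 ± 0.52 for miR-497 (SD, n = 4). Between miR-16 and miR-195 the gap was 5.58 to 6.26 log2 units in the 4 samples. The gap from miR-195 to miR-15b was 0.78 to 2.03, and that from miR-15a to miR-497 was 0.59 to 2.01, so both orders held in 4 of 4 samples. Neighbours miR-15b and miR-15a did not differ beyond their spread, with a gap of 0.81 ± 1.33 (SD, n = 4) and the order turned in wild-type replicate 1. Taken as a sum on a linear scale, at equal efficiency of all assays, miR-16 made up 97.7% and 97.4% of the family in knockout samples, and 97.2% and 96.2% in wild-type samples.

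The genotype comparison asked whether the loss of ER-alpha goes with another level of the family in the embryo. The member with the highest log2 fold change was miR-16 (0.74, or 1.67-fold), with a mean level of 7.64 ± 0.38 in knockout and 6.90 ± 0.16 in wild-type samples (SD, n = 2 each). For miR-15b it was 0.73, or 1.66-fold, from means of 0.42 ± 0.01 in knockout and -0.31 ± 1.03 in wild-type samples. For miR-195 it was 0.41, or 1.33-fold, with means of 1.51 ± 0.19 in knockout and 1.10 ± 0.15 in wild-type samples. The values of miR-497 (-0.09, or 0.94-fold) and miR-15a (-0.30, or 0.81-fold) lay below 0. In whole embryos, a lower level can mean fewer cells that make a microRNA or less of it per cell, and these cannot be told apart.

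None of these differences passed the test. By limma with Benjamini-Hochberg adjustment over the 229 microRNAs, 0 of 5 members were called at an adjusted p of 0.05, as were 0% of all tested microRNAs. Adjusted p was 0.939 for miR-15a, miR-15b, miR-16 and miR-195, and 0.965 for miR-497. Unadjusted limma p-values under 0.05 were found for 0 of 5 members and for 4.37% of all tested microRNAs. The standard error, 0.64 log2 units, was pooled over the 229 assays and common to all of them, so only a difference of 2.38-fold or more could have an unadjusted p of 0.05. The p-values and 95% intervals given here therefore leave out each member's own spread. The 95% interval reached from 0.70-fold to 3.98-fold for miR-16, from 0.70-fold to 3.96-fold for miR-15b and from 0.56-fold to 3.16-fold for miR-195. It reached from 0.34-fold to 1.93-fold for miR-15a and from 0.39-fold to 2.24-fold for miR-497. All 5 intervals included equal levels. With each member's own variance in place of the pooled one, the 95% interval of the log2 fold change was -2.40 to 3.87 for miR-15b, -3.96 to 3.35 for miR-15a and -2.83 to 2.65 for miR-497. For miR-16 it was then -0.52 to 2.00, and for miR-195 -0.33 to 1.14.

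Fold changes of the panel as a whole also lay mostly above 0. The panel median log2 fold change was 0.26, and 68.1% of tested microRNAs had a value above 0, against 3 of 5 members. Centring set the median level of each sample to 0, so this is not a shift of that median level. It depended on the scaling. The panel median fold change was -0.05 with samples centred on the average profile, 0.05 with quantile normalization and 0.54 with scaling to the 5 small-RNA controls. Knockout samples lay above wild-type samples without overlap for 3 of 5 members (miR-16, miR-195 and miR-15b) and for 33.2% of all tested microRNAs. The opposite held for 0 of 5 members and 6.11% of the panel. Read from the highest of the 229 fold changes, miR-16 had rank 25, miR-15b rank 26, miR-195 rank 95, miR-497 rank 163 and miR-15a rank 188. Members thus lay on both sides of the panel median, with a family median of 0.41.

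Values without wild-type replicate 1 depended on the centring. Without it, with detection and centring redone over 241 assays, the log2 fold change was 0.52 for miR-16, -0.03 for miR-195, -0.04 for miR-15a, -0.33 for miR-15b and -0.53 for miR-497. The panel median was then -0.03. In that setting miR-15b and miR-195 changed sign, and miR-16 alone of the 5 lay above 0. With that sample left out but the centring of all 4 samples kept, a setting chosen after seeing the data, the values were 0.85 for miR-16, 0.31 for miR-195, 0.29 for miR-15a, 0.01 for miR-15b and -0.20 for miR-497. The panel median was 0.30, and miR-15a was the member that changed sign. In both settings miR-16 had the highest value of the 5 and miR-497 the lowest. Without wild-type replicate 2, unadjusted limma p-values under 0.05 were found for 1 of 5 members (miR-15b) and for 28.9% of the microRNAs tested.

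**Figure D2:**
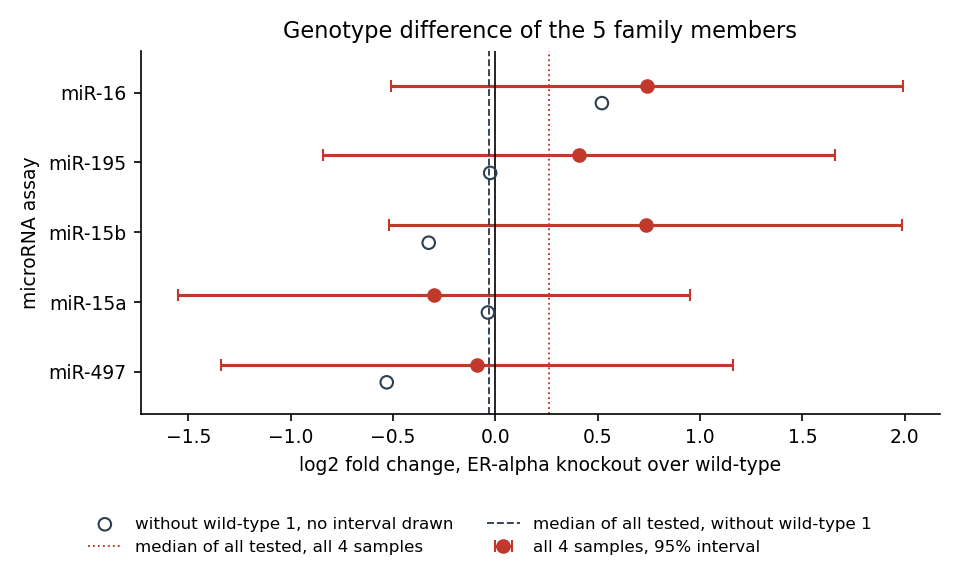
Log2 fold change of each member, ER-alpha knockout over wild-type, from all 4 samples with its 95% interval (red) and without wild-type replicate 1, with the centring redone (open circles, no interval). Vertical lines mark 0 and the median of all tested microRNAs, 0.26 with all samples (dotted) and -0.03 without that replicate (dashed). All 5 red intervals, which use the standard error pooled over assays, cross 0.

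Ratios between members need no scaling, since both assays were read in the same sample. The pairs were those that share a cluster and the miR-15 forms, 4 pairs in all. Cluster partners miR-195 and miR-497 were 3.01 and 3.996 log2 units apart in knockout samples, and 3.01 and 2.998 apart in wild-type samples. Of the 4 samples 3 were nearly equal, and knockout replicate 2 held the higher ratio. The difference between knockout and wild-type means was 0.50, with an exact permutation p = 0.667 (two-sided), and 0.51 without wild-type replicate 1.

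The excess of miR-16 over miR-15a, its partner on chromosome 14, was 8.21 and 8.88 in knockout samples, and 7.01 and 7.99 in wild-type samples. This was the only one of the 4 ratios whose groups did not overlap, with both knockout samples higher and a difference of means of 1.04. Its exact permutation p = 0.333 is the smallest that 2 against 2 samples can give. Without any genotype difference, groups of this size would separate in about that share of ratios. The share over all pairs of tested microRNAs was not computed. Without wild-type replicate 1 the difference was 0.56, a drop of over 1.5 times.

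The excess of miR-16 over miR-15b, its partner on chromosome 3, was 7.48 and 6.95 in knockout samples, and 8.04 and 6.37 in wild-type samples. The wild-type values lay outside the knockout values on both sides, and the means differed by 0.0080 (exact permutation p = 1). Without wild-type replicate 1 that difference was 0.85. Because 1 assay reads miR-16 from both loci, neither ratio follows a single precursor.

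For miR-15b over miR-15a the log2 ratio was 0.73 and 1.93 in knockout samples, and -1.03 and 1.62 in wild-type samples. Wild-type replicate 1 was the only sample in which miR-15a came up before miR-15b. Knockout minus wild-type was 1.04 with all samples (exact permutation p = 0.667) and -0.29 without that replicate. Adjusted over the 4 pairs, p was 0.889 or higher for each ratio.

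**Figure D3:**
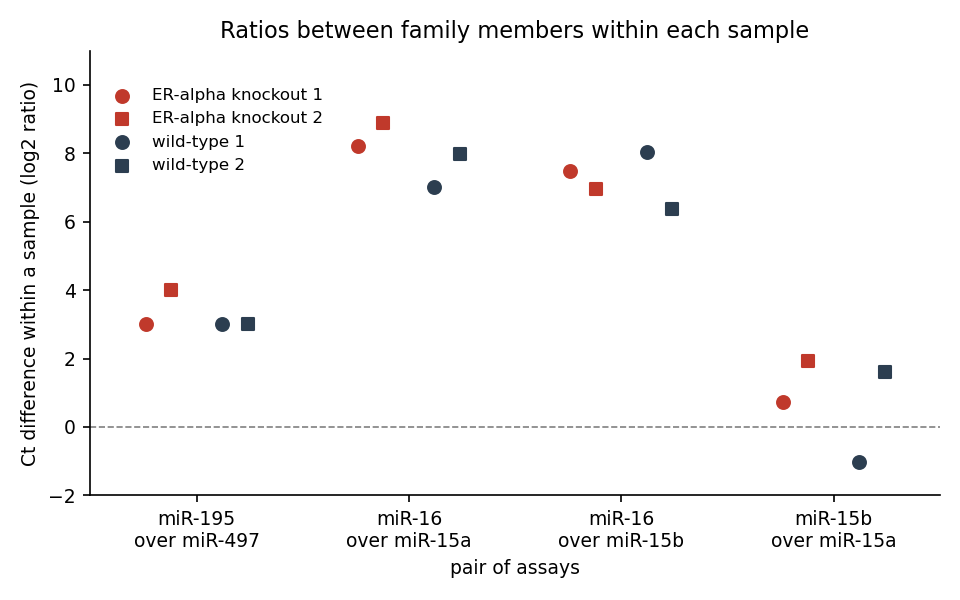
Within-sample Ct differences of 4 pairs of members, as log2 ratios, in ER-alpha knockout (red) and wild-type (dark blue) samples; each point is a sample. Knockout samples lie above wild-type samples for miR-16 over miR-15a (exact permutation p = 0.333), and the wild-type replicate 1 point at -1.03 is the only ratio below 0.

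The members did not share 1 pattern across the samples. After each level was set against its own mean over 4 samples, the root mean square distance between 2 members had a median of 0.57 log2 units over the 10 pairs, beside 0.53 over the 26106 pairs of tested microRNAs. The closest members were miR-16 and miR-195 (0.24), and the most distant were miR-15a and miR-15b (1.15). Cluster partners miR-195 and miR-497 had 0.43. The sequences of miR-16 and miR-195 differ at only 2 of 21 compared bases, and cross-reaction between their assays was not tested. In wild-type replicate 1 miR-15a deviated by 0.75 and miR-15b by -1.10, the largest gap between members in any sample.

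Nearest to the median profile of the members, among the other 224 tested microRNAs and over 4 samples, were mmu-miR-106b (distance 0.048), mmu-miR-193 (0.049) and mmu-miR-383 (0.051). Of the 224, 12 lay within 0.1, and the median distance was 0.35. Of the members themselves miR-195 lay at 0.062, miR-16 at 0.21, miR-497 at 0.41, miR-15b at 0.50 and miR-15a at 0.67. With 4 samples many profiles come close, and these distances are a description only.

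**Figure D4:**
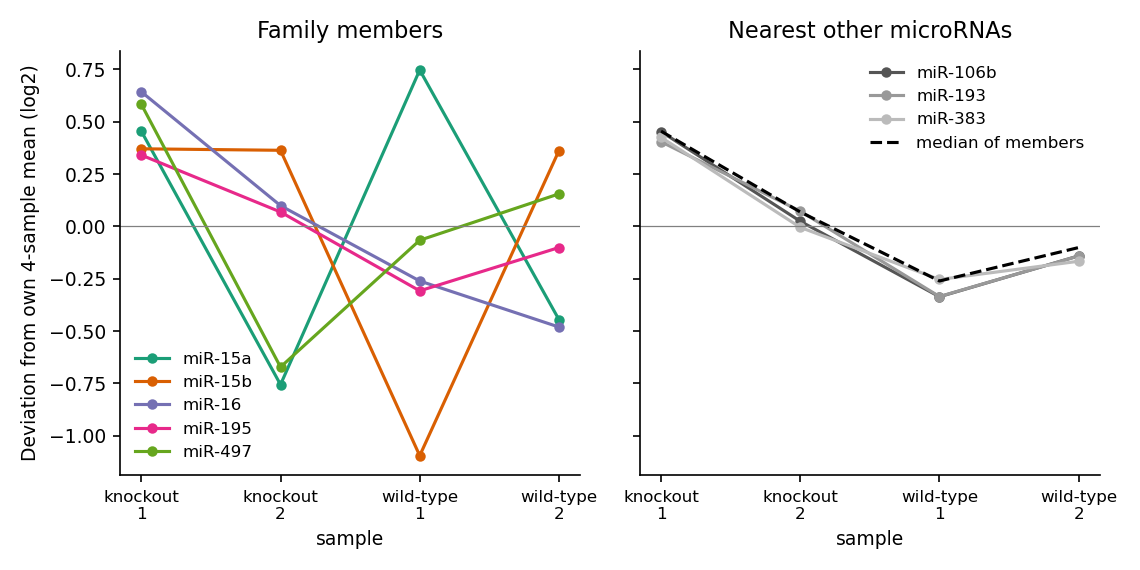
Deviation of each microRNA from its own 4-sample mean (log2 units) in ER-alpha knockout and wild-type samples, for the 5 members (left) and for the 3 nearest other microRNAs with the median of the members (right). Lines join samples only to guide the eye. Values of miR-15a and miR-15b in wild-type replicate 1 lie at 0.75 and -1.10, while the 3 microRNAs on the right stay within 0.052 of the median profile in root mean square distance.

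A wider group around miR-15 and miR-107 holds relatives with an AGCAGC stretch near the 5′ end. They are shown, with bases 2 to 8 in capitals, to set their seeds beside that of the family. Their assay names also give no arm. The assays of miR-322 and miR-503 were matched to the 5′ arm, and those of miR-103 and miR-107 to the 3′ arm. The seed of miR-322 is the same, that of miR-503 differs from it by A8G with the miR-16 base first, and in miR-103 and miR-107 the stretch starts 1 base earlier.
mmu-miR-322: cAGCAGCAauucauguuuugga
mmu-miR-503: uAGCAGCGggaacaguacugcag
mmu-miR-103: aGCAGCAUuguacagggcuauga
mmu-miR-107: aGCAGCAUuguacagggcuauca
Both miR-322 and miR-503, products of 1 cluster on the X chromosome that restrain the cell cycle during muscle differentiation, were read between miR-16 and miR-15b. Levels of miR-322 were 1.70 and 1.21 in knockout samples, and 0.98 and 0.95 in wild-type samples, a log2 fold change of 0.49 (0.17 without wild-type replicate 1). Those of miR-503 were 3.47 and 2.73 in knockout samples, and 2.99 and 2.26 in wild-type samples, a log2 fold change of 0.48 (0.50 without that replicate). The log2 fold changes of miR-103 (-1.03) and miR-107 (-0.50), which are linked to insulin signalling and metabolism, lay below 0. Without that replicate they were -0.40 for miR-103 and -1.04 for miR-107, in the opposite order. Of the 4 relatives on the panel 0 passed the limma test in either direction, and their median log2 fold change was -0.01 (-0.11 without that replicate).

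Other microRNAs tied to growth were taken as lists. Of the miR-17 clusters, which promote proliferation and are driven by MYC and E2F, 11 of 13 assays were tested, 0 were called in either direction and the median log2 fold change was 0.50 (-0.12 without wild-type replicate 1). The earliest of these by Ct were miR-19b (-0.22), miR-17 (0.50), miR-106a (0.56) and miR-20a (0.24). Without that replicate these were -0.13, 0.12, 0.19 and -0.12, in the same order, and miR-20a changed sign. Of let-7 and miR-34, which restrain growth, 12 were tested, 0 were called and the median was 0.15 (-0.29 without that replicate). Unadjusted limma p-values under 0.05 were found for 2 of the 12, beside 4.37% of all tested microRNAs. Over these 12 the log2 fold change ran from -1.59 to 1.59 (-1.58 to 1.11 without that replicate). Their earliest were let-7i (0.20), let-7g (0.73), let-7e (0.59) and let-7c (0.14). Without it these were -0.0064, 0.08, -0.33 and -0.44, in the same order, so let-7g was the only one of the 4 above 0. The family median of 0.41 lay between those of the lists, and without that replicate it was -0.04, above both. No test of the order was made.

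Blood-cell microRNAs were set beside the family because red cells hold much miR-16. Of the 7 on the panel, all were detected in every sample, and their summed level was 5.48 and 5.16 log2 units in knockout samples, against 4.37 and 5.02 in wild-type samples. The earliest by Ct, miR-223 of myeloid cells, made up the largest part of that sum in each sample. It had a log2 fold change of 0.63 (0.06 without wild-type replicate 1). The red-cell microRNA miR-451, named after its values were seen, was at -0.97 and -1.19 in knockout samples, and at -2.01 and -1.001 in wild-type samples. Its log2 fold change was 0.42 (-0.41 without that replicate). The log2 fold change had a median of 0.63 over these 7 with all samples and of -0.19 without wild-type replicate 1, and 0 were called. With all samples it ran from -0.56 to 0.91 over the 7. The part of blood in the level of miR-16 was not tested.

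Scaled to the mean of the 5 small-RNA controls of the panel, miR-16 stood at 4.02 and 3.99 log2 units in knockout samples. It stood at 2.37 and 3.59 in wild-type samples, so its groups stayed apart on this mean. Against the control U6 alone its groups overlapped. There knockout replicate 2 (miR-16 Ct 20.5, U6 Ct 15.6) lay below wild-type replicate 2 (20.6 and 15.9), with a log2 fold change of 0.80. Another control, U87, had a Ct of 26.1 and 28.3 in knockout replicates 1 and 2, and of 26.3 and 27.8 in wild-type replicates 1 and 2. On the scale of the 5 controls knockout samples lay above wild-type samples without overlap for 1 of 5 members and for 20.5% of all tested microRNAs. The opposite held for 0 of 5 members and 6.55% of the panel. With this scaling, the panel median log2 fold change was 0.54 and that of the family 0.69.

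**Figure D5:**
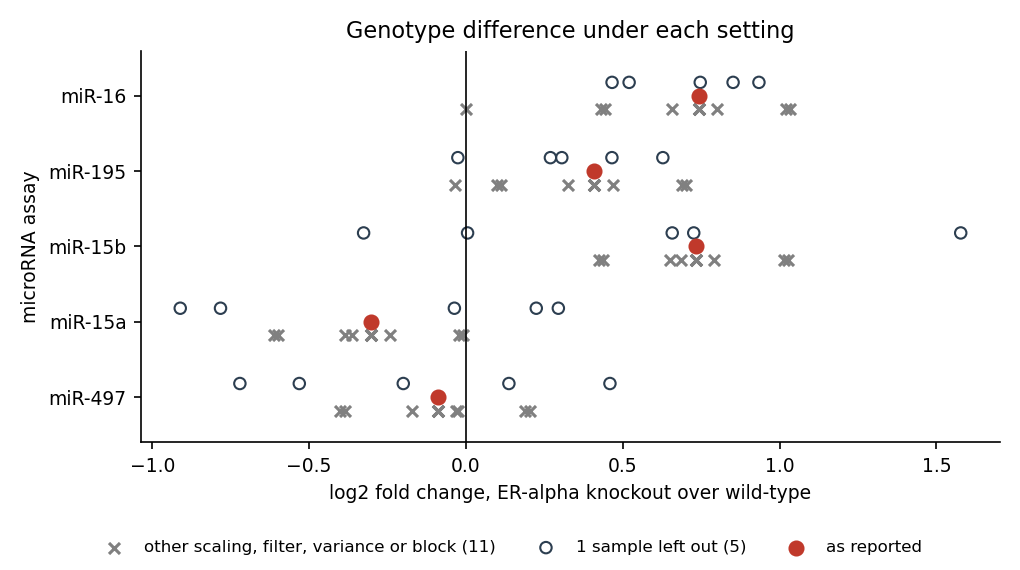
Log2 fold change of each member, ER-alpha knockout over wild-type, as reported (red), with 1 sample left out (5 settings, open circles) and with another scaling, filter, variance or block (11 settings, crosses). Values of miR-16 stay at or above 0 in each of them, and those of the other 4 members lie on both sides of 0. The settings with no detection filter, a replicate block or another variance model keep the reported value by construction, so they do not test its direction.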

How the data were processed

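Per the labels' protocols, TRIzol RNA went through 40 cycles of TaqMan PCR on a 7900HT system. The authors deposited a threshold cycle (Ct) for each well, as the file headers say. U6 had 4 wells, which were averaged, and every other assay 1. The threshold, baseline and any normalization are not given in the sources used here. Wells without amplification, and 39 wells of wild-type replicate 1 above cycle 40, were treated as not amplified. PCR gives no read counts, so depth is described by the number of microRNAs detected, and 2 samples per genotype limit the precision.

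Minus Ct was centred on each sample's median over the microRNAs at a Ct of 35 or lower in all samples. The genotype fit was two-sided, by lmFit and eBayes of limma 3.58.1 (R 4.3.3). Adjustment was over all 229 tested microRNAs. The fit was run on simulated data with equal independent noise in all samples and large known shifts. That run checks the code alone and does not measure power or error rates for these samples. Ratios used exact permutation tests in scipy 1.17.1. Tables and plots used Python 3.11.15, pandas 2.3.3 and matplotlib 3.10.9. Members were set by assay name and not by their values, but members and lists were chosen with earlier results of these data known. Named microRNAs are the members, the 3 nearest profiles and at most 4 of each list with the earliest mean Ct; miR-451 was added after its values were seen. Tissue marker microRNAs are named only as detected. Alternatives were other scalings, detection limits, variance models, a replicate block and each sample left out.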

Additional observations from a re-analysis of the deposited data

How the results depend on the processing

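The count of members past the threshold was 0 under each of the 16 alternatives, 15 planned and 1 chosen after seeing the data. Over all microRNAs it was 0 in 14 of them, 1 with the replicate number as a replicate block and 1 without wild-type replicate 1 when the centring of all 4 samples was kept. Neither called microRNA was a member. The limma fold changes of members were by construction the same under the block, without the detection filter and under the other variance models. Those settings thus do not test the direction of a change. Same-numbered samples, which deviated together (r = 0.37 over 229 assays), were not treated as pairs. Directions were less stable. For miR-16 the log2 fold change was 0 to 1.03 with all samples kept, the 0 coming from quantile normalization, because it held the same rank in each sample. With quantile normalization miR-195 was at -0.034, miR-195 over miR-497 at -0.0080 and miR-16 over miR-15b at -0.68. Scaling to the controls put miR-497 at 0.19, and no normalization at 0.20. With 1 sample left out, the log2 fold change ran from 0.47 to 0.93 for miR-16, -0.33 to 1.58 for miR-15b, -0.026 to 0.63 for miR-195, -0.91 to 0.29 for miR-15a and -0.72 to 0.46 for miR-497. Group differences of ratios then ran from 0.56 to 1.53 for miR-16 over miR-15a, -0.83 to 0.85 for miR-16 over miR-15b, -0.29 to 2.36 for miR-15b over miR-15a and 0.0063 to 0.99 for miR-195 over miR-497. Of single samples, wild-type replicate 1 turned miR-15b and miR-195 with the centring redone, but miR-15a (0.29) in their place with the centring of all 4 samples kept; ER-alpha knockout replicate 2 turned miR-15a (0.22) and miR-497 (0.46), and wild-type replicate 2 turned miR-497 (0.14). Without wild-type replicate 2 the unadjusted p of miR-15b was 0.0080 (limma adjusted p = 0.135), in a fit where 28.9% of 235 microRNAs had an unadjusted p under 0.05. In such fits a lone sample is assumed to vary like the other group.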
